A study of Sus scrofa with 60 samples.

Results

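The genes described here build the route by which liver cells export protein: they bring nascent chains to the endoplasmic reticulum (ER), pass them through its membrane, trim and glycosylate them, and carry them in coated vesicles between the ER and the Golgi apparatus. Members were chosen by gene symbol, from a list of symbols drawn up when earlier results of these data were known. They are the genes whose single symbol in the array annotation is DAD1, RPN1, RPN2, STT3A, STT3B, COPA, COPE or DDOST, or starts with SEC, SSR, SRP or ARF followed by a digit, or with SRPR, SPCS, COPB, COPG, COPZ, TMED, KDELR, LMAN, SAR1 or TRAPPC, less 1 TMED gene that the rule leaves out. RPN2 and COPE gave no member. The symbols on the array gave 71 genes read by 108 probe-sets, of 6765 genes with a single symbol and 23999 probe-sets other than controls. A probe-set is the group of short oligonucleotides that reads a transcript, and 23 of the members had more than 1. Each gene is reported by its probe-set of highest mean over all arrays.

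A protein destined for secretion carries a signal sequence that the signal recognition particle binds as it leaves the ribosome. The particle docks at its receptor, the chain passes through the SEC61 channel, the signal peptidase cleaves the signal and the oligosaccharyltransferase adds sugar chains. COPII-coated vesicles then leave the ER, cargo receptors select what they hold, TRAPP complexes help the vesicles tether, and COPI-coated vesicles return escaped ER proteins. In liver this route carries albumin, clotting factors and lipoproteins into the blood.

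Liver was taken from 60 German Landrace offspring of gilts that received the adequate protein (AP) diet during pregnancy, a treatment that all groups share. The stages were 94 days post conceptionem (dpc, 15 fetuses) and 1, 28 and 188 days post natum (dpn, with 15 newborns and 14 and 16 older pigs), and each animal had its own Affymetrix porcine array. Fetuses and born animals belonged to different feeding experiments, animals within a stage were sib pairs, of which a light and a heavy sib were taken for the fetal and newborn stages, and the older pigs were killed after a night without feed. Piglets of a litter were spread over 1, 28 and 188 dpn, so sibs can also stand in different postnatal stages. The labels do not assign animals to a litter, sex or weight, and the p-values therefore treat sibs as unrelated. Stage and experiment cannot be told apart in the comparison of newborns with fetuses, nor stage and fasting in that of 28 dpn with newborns.

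Signals are the deposited array intensities, and levels of a stage are given as the lowest, the median and the highest signal among its animals. Changes are differences of stage means on the log2(signal + 16) scale, so that a positive one is higher in the older animals. The ± sign gives their standard error (SE), and adjusted p-values are from limma with Benjamini-Hochberg adjustment over all probe-sets tested. Period I is 1 dpn over 94 dpc, period II is 28 dpn over 1 dpn and period III is 188 dpn over 28 dpn. A gene rose or fell where its adjusted p was below 0.05. Testing required a signal above the array median in 50% or more of the animals of either stage. COPB2, SEC22C and SPCS2 never passed this filter, and TRAPPC12 failed it in period I and LMAN2L in period III.

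All 7 hepatocyte markers on the array were above the background of the Tag control probe-sets at every stage. Their summed signal had medians of 349155 in fetuses, 363884 in newborns, 252661 at 28 dpn and 312546 at 188 dpn. From 1 to 28 dpn 5 of the 7 fell and 1 rose, beside 35.7% and 32.2% of all genes. Its part in the changes of the members was not tested. The array medians averaged 169.8 in fetuses, 149 in newborns, 117 at 28 dpn and 111 at 188 dpn, while the trimmed mean was held at about 500 on every array. The log2 ratio of the actin control read near its 3' end to that read near its 5' end, a sign of RNA and labelling quality, averaged 2.29, 1.76, 3.54 and 4.01 at the successive stages (2-sided permutation tests, adjusted p = 9e-05 in period I, 4e-05 in period II and 0.0114 in period III). It ran from 2.85 to 4.41 at 28 dpn, against 1.14 to 2.23 at 1 dpn, without overlap. The same ratio for GAPDH averaged 0.99, 0.38, 0.77 and 0.68 at the successive stages, and it ran from 0.16 to 0.66 at 1 dpn, against 0.81 to 1.30 at 94 dpc, again without overlap (adjusted p = 4e-05 in periods I and II and 0.0155 in period III). Both ratios were lowest in newborns, the stage at which 32 of 68 members had their highest mean. The GAPDH ratio was not used as a covariate, so its part in the results was not tested. The summed signal of 8 erythroid markers had a median of 4902 at 1 dpn, against 35666 at 94 dpc. The sum of 12 macrophage markers had a median of 77345 at 28 dpn, against 36099 at 1 dpn, with ITGAM at background. For each gene below, fewer cells of a type and less RNA per cell cannot be told apart in these whole-tissue samples.

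The members were most often highest in newborns. Among the 68 members that could be ranked over the 4 stages, 32 had their highest mean at 1 dpn, which is 47.1% beside 22.2% of all 5491 genes ranked. At 94 dpc 18 members had their highest mean (26.5%, beside 37.7% of all genes), at 28 dpn 7 (10.3%, beside 16.5%) and at 188 dpn 11 (16.2%, beside 23.6%). The lowest mean was at 188 dpn for 33 members (48.5%, beside 36.1%). With each array centred on its median, 26 members had their highest mean at 1 dpn, beside 17.4% of all genes. Any difference among the stages passed the F test for 67 of the 68 members, where 94.6% of all genes did, so that count says nothing particular about the members. The differences were moderate: the stage means spanned at least 2-fold in 30 members (44.1%, beside 47.4% of all genes) and at least 4-fold in 1 (beside 11.4%). SEC14L2 was that 1 gene.

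In period I, 37 of 67 members tested rose (55.2%, beside 29.8% of all genes tested) and 10 fell (14.9%, beside 35.6%). The median change of the members was 0.30, beside -0.06 over all genes. With each array centred on its median 42 members rose and 6 fell, beside 39.6% and 24.7% of all genes, whose median was then 0.11. A rise of at least 2-fold was found for 5 members (7.46%, beside 6.93%), namely SEC14L2, TMED5, SEC11C, DAD1 and SEC23B, and a fall of that size for COPG2 and COPZ2 (2.99%, beside 6.3%). The animals of the 2 stages did not overlap for 7 members that were higher at 1 dpn (10.4%, beside 7.05%) and 4 that were lower (5.97%, beside 5.78%). The actin covariate ended the rises of LMAN2L, SAR1B, SEC14L1, SRP9 and TRAPPC9 and the fall of SEC62, and median centring the falls of SEC23A, SEC62, SRP19 and SSR4. The rises of COPZ1 and SEC61A1 were lost with no filter and with quantile normalization, those of SAR1B and SPCS1 with quantile normalization, that of TRAPPC9 with no filter, that of LMAN2L in a fit over all stages, and those of LMAN2, SAR1A, SAR1B and SEC61G with the mean of a gene's probe-sets. The members that rose were thus many, while by 1 probe-set per gene large rises were about as frequent among the members as among all genes. Over all 95 member probe-sets tested, 10 rose at least 2-fold (10.5%, beside 5.32% of all probe-sets) and 2 fell as much (2.11%, beside 8.14%).

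In period II the direction was the opposite. Of 68 members tested 39 fell (57.4%, beside 35.7% of all genes) and 13 rose (19.1%, beside 32.2%), and the median change was -0.30, beside -0.03 over all genes. Falls of at least 2-fold numbered 9 (13.2%, beside 8.73%) and rises of that size 3 (4.41%, beside 7.2%). LMAN2L is counted among these falls and TRAPPC12 among these rises, with the limit given below. Stages without overlap were found for 10 members that were lower at 28 dpn (14.7%, beside 5.83%) and 5 that were higher (7.35%, beside 5.75%). Over all 96 member probe-sets tested, 25 fell at least 2-fold (26%, beside 12% of all probe-sets) and 3 rose as much (3.12%, beside 6.36%). Without overlap 24 of them were lower (25%, beside 6.83%) and 5 higher (5.21%, beside 4.59%). Both periods use the same newborns, so the changes of periods I and II are not independent of each other, and they are given side by side for each gene. The counts of period II depended on the scaling: with each array centred on its median 24 members fell and 23 rose, while 19.6% of all genes fell and 50.8% rose, and the median of all genes moved to 0.28 and that of the members to 0.01. Centring shifts all genes of a comparison alike, so it cannot change the members' median relative to all genes, which was -0.27. That difference was -0.53 with quantile normalization and -0.58 with the actin covariate, and in period I, where it was 0.35, it was 0.19 with quantile normalization. The actin ratio moved with this period too, and with it as a covariate 24 members fell (35.3%, beside 12.8% of all genes) and 6 rose (8.82%, beside 11.7%). The ratio did not overlap between 1 and 28 dpn, so in this fit stage and ratio are largely the same split. LMAN2L among the falls and TRAPPC12 among the rises were tested only because of the stage in which they were high, and neither was tested with the filter set in every stage compared. A fall in period II passed under all 10 alternatives for 16 members, which were ARF4, COPA, COPB1, COPZ1, SAR1A, SEC13, SEC23B, SRP19, SRP54, SRP72, SRPRA, SRPRB, STT3A, TMED2, TMED5 and TRAPPC13.

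In period III 20 of 67 members fell (29.9%, beside 28.3% of all genes) and 9 rose (13.4%, beside 17.5%), shares close to those of all genes. The falls of COPA, SRPRB and TMED7 were lost both with median centring and with the actin covariate, and that of SAR1A with centring. Of the 9 rises, SAR1B, SSR4, TRAPPC2L and TRAPPC5 were lost with no filter, SAR1B, SSR2, SSR4 and TRAPPC2L with quantile normalization, and SEC31B in a fit over all stages. The median change was -0.09, beside -0.06. KDELR3 alone fell by at least 2-fold (1.49%, beside 2.97%), no member rose by as much (beside 1.12%), and the animals of 28 and 188 dpn overlapped for every member (0.704% of all genes were higher and 0.913% lower without overlap).

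**Figure D1:**
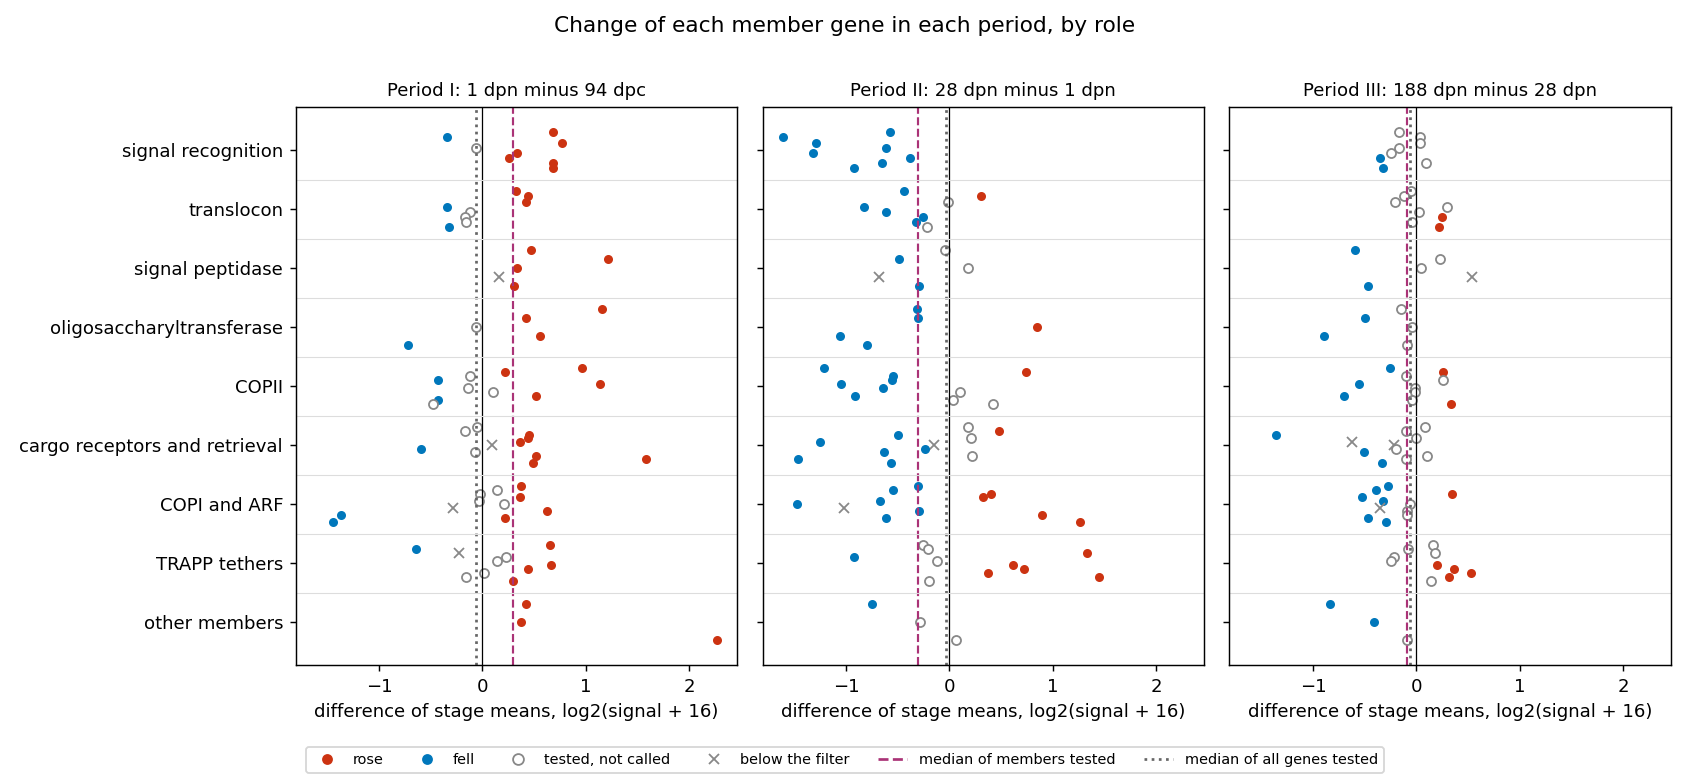
Difference of stage means on the log2(signal + 16) scale (horizontal axis) for each of the 71 members, in rows by role and in 1 panel per period. Red points rose, blue points fell, open points were not called and crosses were below the filter; the dashed line is the median of the members tested (0.30, -0.30 and -0.09 in periods I, II and III) and the dotted line that of all genes tested.

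The plot of change by role shows that the groups did not move as 1. In period II all 8 signal recognition genes lie left of the line for all genes, while 5 of 10 TRAPP genes rose. The translocon genes were split in period I, with 3 of 8 higher and 2 lower. The counts of the role groups stand beside the shares of all genes given above, 29.8% higher and 35.6% lower in period I, 32.2% and 35.7% in period II, and 17.5% and 28.3% in period III, and in groups this small 1 gene moves a share far.

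The signal recognition particle and its receptor fell together in period II. In period I 6 of 8 genes rose and 1 fell, with a median change of 0.51. In period II all 8 did, with a median of -0.79. In period III 2 fell and none rose, and 6 of the 8 had their highest mean in newborns. SRP54, the subunit that binds the signal sequence, had signals of 770.1, 879.8 and 1203 in fetuses, 1056, 1553 and 2666 in newborns, 436, 602 and 855 at 28 dpn and 400.5, 659 and 819 at 188 dpn. The newborns were high, with some overlap with the fetuses and none with the pigs of 28 dpn. The change was 0.77 ± 0.11 (adjusted p = 1.59e-07) in period I and -1.30 ± 0.13 (adjusted p = 4.62e-10) in period II. SRPRA, the receptor subunit that docks the particle, had 2468, 3229 and 4238 in fetuses, 3742, 5335 and 7473 in newborns, 2685, 3306 and 4495 at 28 dpn and 2719, 3714 and 4664 at 188 dpn. Its change was 0.69 ± 0.10 (adjusted p = 4.10e-07) in period I and -0.65 ± 0.10 (adjusted p = 2.72e-06) in period II, while period III gave 0.09 ± 0.09. Its partner SRPRB, which anchors the receptor in the membrane, had medians of 1152 in fetuses, 1980.3 in newborns, 927 at 28 dpn and 797 at 188 dpn and changed by 0.68 ± 0.14 (adjusted p = 1.17e-04) and -0.93 ± 0.15 (adjusted p = 3.22e-06) in periods I and II.

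The other subunits of the particle differed in how they entered the newborn stage. SRP9 and SRP14, which slow elongation while the ribosome is brought to the membrane, rose by 0.26 ± 0.09 and 0.68 ± 0.12 in period I and changed by -0.38 ± 0.11 and -0.58 ± 0.13 in period II. Both of these later falls were lost when arrays were centred on their medians, and those of SRP9 and SRP68 with the actin covariate. SRP72 rose by 0.34 ± 0.12 in period I, and in period II its change was -1.32 ± 0.14 (adjusted p = 9.52e-10) without overlap. Its partner SRP68, which with SRP72 binds the particle's RNA, was not called in period I (-0.06 ± 0.08) and fell in period II (-0.61 ± 0.09). SRP19, which helps the RNA and SRP54 to assemble, had 2780.3, 3229 and 4354 in fetuses, 1691, 2802 and 3391 in newborns, 630.2, 806 and 1487 at 28 dpn and 628, 851 and 1247 at 188 dpn. It did not peak in newborns: its change was already -0.34 ± 0.09 (adjusted p = 0.00131) in period I, and -1.61 ± 0.12 (adjusted p = 3.58e-13) in period II was the lowest of all members tested. Its pigs of 28 dpn were all below the newborns.

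The translocon genes had no common direction at birth: 3 of 8 rose and 2 fell in period I, 1 rose and 5 fell in period II, and 2 rose in period III. SEC61A1, which forms the channel, had 3194, 4926 and 7829.9 in fetuses, 3571, 6729 and 10732 in newborns, 3618, 4671 and 5853 at 28 dpn and 3264, 4394 and 5961 at 188 dpn, with stages that overlapped throughout. It rose by 0.32 ± 0.13 in period I and changed by -0.44 ± 0.13 in period II, a fall lost with median centring. Its rise was lost under 3 alternatives, with no filter, with quantile normalization and without the array least correlated with the rest of each stage. The small subunits SEC61B and SEC61G rose by 0.44 ± 0.10 and 0.42 ± 0.07 in period I. SEC61B rose again by 0.31 ± 0.10 in period II, a call that was lost, with the sign turned, when the actin ratio was a covariate (-0.27). SEC62 and SEC63, which serve chains that enter the ER after translation, behaved differently. SEC62 had medians of 1884 in fetuses, 1218 in newborns, 771 at 28 dpn and 1070.3 at 188 dpn and changed by -0.35 ± 0.15 (adjusted p = 0.0475) and -0.83 ± 0.16 (adjusted p = 5.02e-05) in periods I and II. SEC63 had medians of 1449 in fetuses, 1195 in newborns, 865 at 28 dpn and 881 at 188 dpn, with -0.12 ± 0.13 in period I, not called, and -0.61 ± 0.17 in period II. The SEC63 fall was lost with median centring and with the actin covariate, and the SEC62 fall of period II with the actin covariate only.

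The SSR genes encode the translocon-associated protein complex, which assists the entry of some signal sequences. The probe-set of SSR2 had the highest mean signal among the members, with 15012, 17699 and 21665 in fetuses, 10839, 15404 and 21911 in newborns, 11265, 12998 and 18359.7 at 28 dpn and 12714, 15162 and 19219.8 at 188 dpn. It changed by -0.25 ± 0.10 in period II and 0.25 ± 0.08 in period III, so that its lowest mean was at 28 dpn. SSR4 had medians of 17568 in fetuses, 14366 in newborns, 11889.8 at 28 dpn and 14065 at 188 dpn, with -0.32 ± 0.10 (adjusted p = 0.00376) in period I and 0.22 ± 0.08 (adjusted p = 0.0355) in period III. SSR3 had medians of 7759 in fetuses, 6892 in newborns, 5562 at 28 dpn and 5653 at 188 dpn and was called in period II only (-0.33 ± 0.11). The period II falls of SSR2 and SSR3 were lost with median centring, and that of SSR2 also with the actin covariate, as were the rises of SSR2 and SSR4 in period III. None of the SSR genes had its highest mean in newborns.

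All 4 signal peptidase genes tested rose in period I, with a median change of 0.40. SEC11C, which encodes a catalytic subunit, had 3922, 4679 and 5799.7 in fetuses, 6781, 11413 and 14675 in newborns, 4501, 8730.0 and 10026 at 28 dpn and 7149, 9339 and 13302 at 188 dpn. Every newborn was above every fetus, and the change was 1.22 ± 0.09 (adjusted p = 4.20e-13), a 2.32-fold difference. In period II it changed by -0.48 ± 0.12, a fall lost with median centring, and its lowest signal at 188 dpn, 7149, lay beside a highest fetal signal of 5799.7. The other catalytic subunit, SEC11A, had 3044 in fetuses, 4338 in newborns, 4151 at 28 dpn and 2617 at 188 dpn as medians, rose by 0.47 ± 0.07 in period I and fell by 0.60 in period III (adjusted p = 5.82e-05). SPCS3, a subunit needed for cleavage, rose by 0.31 ± 0.06, then changed by -0.29 ± 0.08, a fall lost with median centring, and -0.47 ± 0.08. SPCS1, a smaller subunit, rose by 0.34 ± 0.09 and was not called afterwards. SPCS2 was below the filter, with a highest signal of 193 among the newborns.

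The oligosaccharyltransferase genes had opposing courses, with 3 of 5 higher and 1 lower in period I, and 1 higher and 4 lower in period II. DAD1, a small subunit needed for the stability of the enzyme, had 5673, 6163 and 6557 in fetuses, 9324, 12867 and 20633 in newborns, 8197, 11048 and 13464 at 28 dpn and 7745, 9676 and 13057 at 188 dpn. The fetuses were narrowly spread and all below the newborns. The change was 1.16 ± 0.09 (adjusted p = 1.03e-12) in period I and -0.31 ± 0.10 (adjusted p = 0.00835) in period II, where the value was 0.0054 with arrays centred on their medians. DDOST, another core subunit, had medians of 11859 in fetuses, 16674 in newborns, 13070.3 at 28 dpn and 8769.8 at 188 dpn and changes of 0.42 ± 0.10, -0.30 ± 0.10 and -0.49 ± 0.08 in periods I, II and III. The fall of DDOST in period II was also lost with median centring and with the actin covariate. RPN1, which presents substrates to the enzyme, had 4588, 7936 and 9709.5 in fetuses, 5599, 7121 and 12225 in newborns, 10737, 13562 and 15404 at 28 dpn and 8644, 13253 and 15412 at 188 dpn. It was not called in period I (-0.07 ± 0.11) and rose in period II by 0.84 ± 0.10 (adjusted p = 1.30e-08), a call lost with the actin covariate.

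STT3A and STT3B are alternative catalytic subunits: complexes with STT3A glycosylate chains during translocation, those with STT3B also act afterwards. STT3A had 1579, 1876 and 2330.3 in fetuses, 1999, 2435 and 3992 in newborns, 908, 1368 and 1603 at 28 dpn and 372, 703 and 938 at 188 dpn. It changed by 0.56 ± 0.11 (adjusted p = 2.76e-05) in period I, -1.06 ± 0.12 (adjusted p = 3.26e-09) in period II without overlap, and -0.89 ± 0.11 (adjusted p = 1.25e-07) in period III. STT3B had 2565, 3593 and 4281 in fetuses, 1359, 2087 and 4067 in newborns, 752, 1366 and 1872 at 28 dpn and 717, 1153 and 1455 at 188 dpn. It was highest in the fetuses and changed by -0.72 ± 0.12 (adjusted p = 3.31e-06) in period I and -0.80 ± 0.16 (adjusted p = 4.59e-05) in period II. The fall in period II was lost with the actin covariate.

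**Figure D2:**
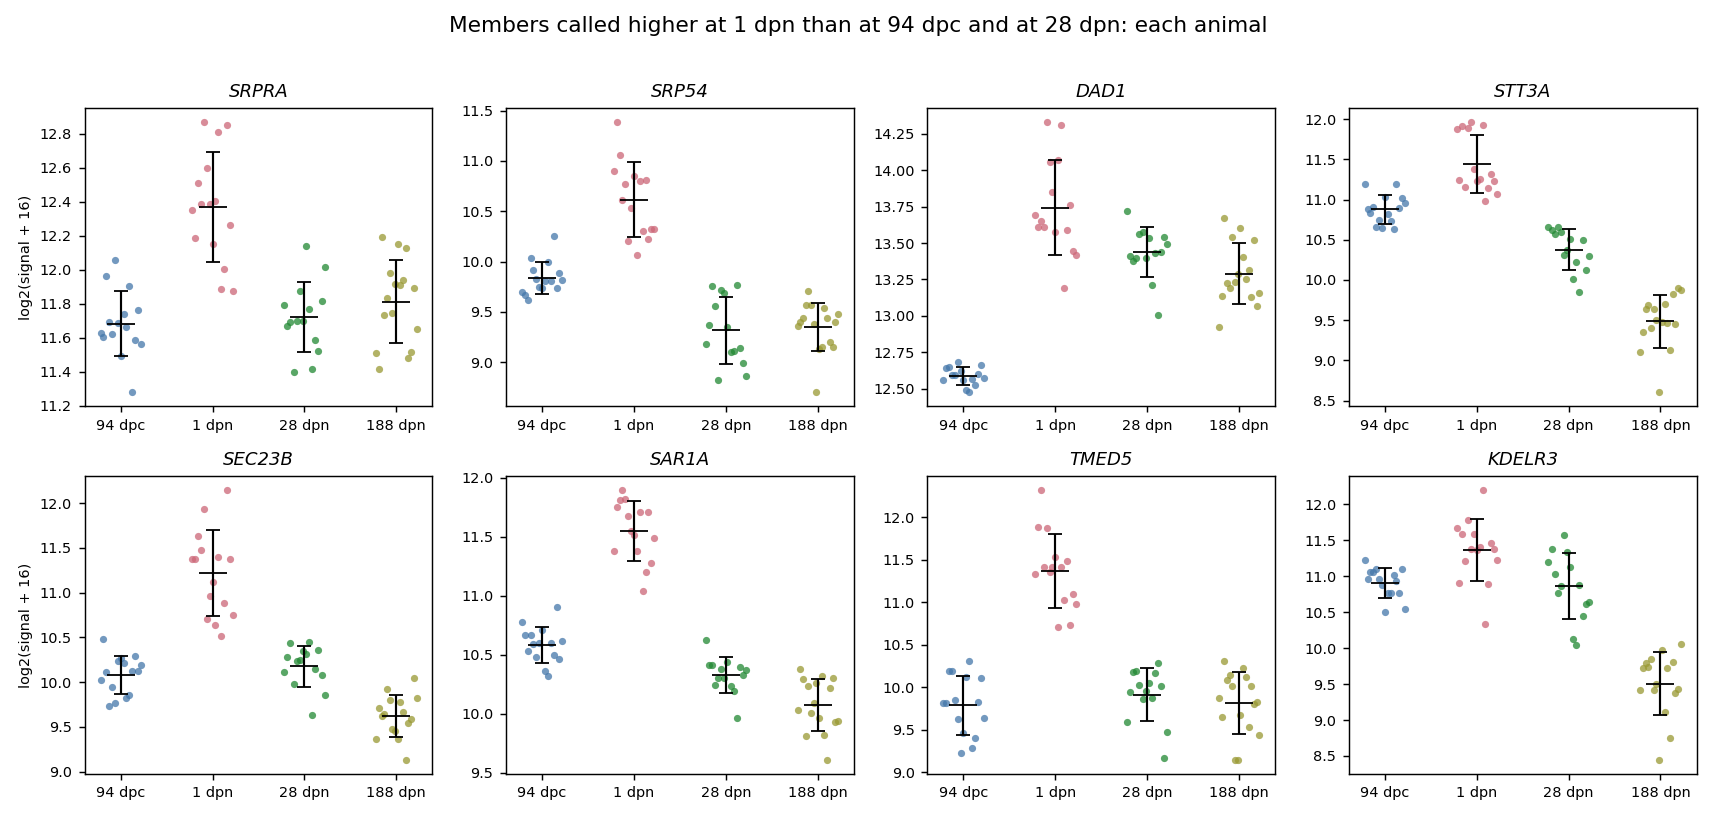
Log2(signal + 16) of 8 members in each of the 60 animals (points, 1 panel per gene) at the 4 stages in order of age, with the stage mean (horizontal bar) and SD (error bar). For SEC23B, SAR1A and TMED5 no newborn lies at or below any animal of another stage, whereas the newborns of KDELR3 overlap both neighbouring stages.

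Of the 10 COPII genes, 4 rose and 2 fell in period I, beside 29.8% and 35.6% of all genes, and 1 rose and 6 fell in period II, beside 32.2% and 35.7%. SAR1A and SAR1B are the GTPases that start coat assembly, and SAR1B in human carries large lipoprotein cargo. SAR1A had 1266, 1534 and 1902 in fetuses, 2085, 2987 and 3801 in newborns, 982, 1289 and 1562 at 28 dpn and 764, 1054 and 1317 at 188 dpn. Every newborn was above every animal of the other stages, with changes of 0.96 ± 0.08 (adjusted p = 1.04e-11) and -1.22 ± 0.09 (adjusted p = 1.92e-13) in periods I and II. The rise rests on this probe-set, because the 2 others of SAR1A fell in period I. SAR1B had 4019, 5074 and 6253 in fetuses, 4787, 6054 and 7619 in newborns, 7829, 9648 and 14667 at 28 dpn and 8809.9, 11304 and 17739 at 188 dpn. It was a rising gene throughout, with 0.21 ± 0.08, 0.74 ± 0.09 (adjusted p = 2.96e-08) and 0.26 ± 0.10 in periods I, II and III, and the pigs of 28 dpn were all above the newborns. The calls of periods I and III were lost with the actin covariate.

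SEC23 and SEC24 form the inner layer of the coat, where SEC24 reads export signals of the cargo. SEC23B had 833, 1096 and 1419 in fetuses, 1444, 2635 and 4532 in newborns, 775, 1193 and 1377 at 28 dpn and 543, 777 and 1038 at 188 dpn. It changed by 1.14 ± 0.13 (adjusted p = 7.48e-09) in period I and -1.04 ± 0.14 (adjusted p = 1.06e-07) in period II, both without overlap, and by -0.56 ± 0.09 in period III. SEC23A had medians of 2117 in fetuses, 1516 in newborns, 1137 at 28 dpn and 1302 at 188 dpn and changed by -0.43 ± 0.11 (adjusted p = 8.71e-04) and -0.55 ± 0.15 (adjusted p = 0.00135), so it was highest in the fetuses. The fall of SEC23A in period II was lost with median centring and with the actin covariate, and its fall in period I with centring. SEC24D had 609, 866 and 1015 in fetuses, 563, 1304 and 2372 in newborns, 394, 627 and 935 at 28 dpn and 181, 351 and 837 at 188 dpn, a wide spread in newborns, and changes of 0.52 ± 0.16, -0.91 ± 0.18 and -0.70 ± 0.17, of which the second was lost with the actin covariate. SEC24C had medians of 1652 in fetuses, 1758 in newborns, 1935 at 28 dpn and 1860.0 at 188 dpn and was called in no period.

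SEC13 and SEC31 form the outer cage. SEC13 had medians of 1766 in fetuses, 1483 in newborns, 1069.8 at 28 dpn and 935 at 188 dpn and was called in period II only (-0.55 ± 0.08, adjusted p = 3.64e-07). SEC31A had 4589.7, 5203 and 6311 in fetuses, 3369.9, 4069 and 4513 in newborns, 3433, 4074 and 4802 at 28 dpn and 2914, 3881 and 4786 at 188 dpn. Its newborns were all below its fetuses (-0.43 ± 0.06, adjusted p = 7.88e-07), and later stages did not differ by the test, but its other probe-sets gave other values. SEC31B was dim, with medians of 184 in fetuses, 147 in newborns, 154 at 28 dpn and 202 at 188 dpn, and rose in period III only (0.34 ± 0.10). SEC23IP, a SEC23 partner at ER exit sites, had medians of 1328 in fetuses, 1206 in newborns, 855 at 28 dpn and 819.6 at 188 dpn and changed by -0.64 ± 0.12 in period II, a call lost with the actin covariate.

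The cargo receptors and retrieval receptors rose in 6 of 10 cases and fell in 1 in period I, and rose in 1 and fell in 6 in period II. TMED5, a member of the p24 family of cargo receptors, had 584, 886 and 1248 in fetuses, 1655, 2707 and 5117 in newborns, 559, 997 and 1228 at 28 dpn and 548, 909 and 1254 at 188 dpn. No newborn overlapped an animal of another stage. The change was 1.58 ± 0.14 (adjusted p = 1.94e-11) in period I, a 3-fold rise, and -1.46 ± 0.14 (adjusted p = 1.43e-10) in period II. The remaining p24 genes did not follow it as a family. TMED7 had medians of 4127 in fetuses, 5769.6 in newborns, 3924 at 28 dpn and 3244 at 188 dpn and changed by 0.49 ± 0.08 and -0.57 ± 0.09, the fall being lost with the actin covariate. TMED4 had medians of 2073 in fetuses, 3042 in newborns, 3569 at 28 dpn and 3711 at 188 dpn and rose in period I only (0.52 ± 0.09). TMED2 had 13286 in fetuses, 12248 in newborns, 7873 at 28 dpn and 5771 at 188 dpn and fell in periods II (-0.63 ± 0.08) and III (-0.51 ± 0.10). TMED10 had 8558 in fetuses, 5869 in newborns, 4896 at 28 dpn and 4364 at 188 dpn and fell by 0.60 in period I (adjusted p = 7.61e-08) and by 0.24 in period II, where the fall was lost with median centring and with the actin covariate.

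The KDEL receptors bind escaped ER proteins in the Golgi and return them. KDELR3 had 1428, 1975 and 2376 in fetuses, 1275, 2649 and 4695 in newborns, 1039, 1856 and 3041 at 28 dpn and 331, 769 and 1047 at 188 dpn. It rose by 0.45 ± 0.12 in period I, changed by -0.50 ± 0.16 in period II, which was lost with median centring and with the actin covariate, and by -1.35 ± 0.16 (adjusted p = 5.15e-08) in period III, the largest change of that period among members. KDELR1 had medians of 2489 in fetuses, 2172 in newborns, 2690.5 at 28 dpn and 2779.8 at 188 dpn and was called in no period. KDELR2 had medians of 2943 in fetuses, 2507 in newborns, 3618 at 28 dpn and 3434 at 188 dpn, and its 0.48 ± 0.10 in period II was lost with the actin covariate and opposed by its other probe-sets. LMAN2, a lectin that follows glycoproteins between ER and Golgi, had medians of 5316 in fetuses, 7252 in newborns, 8297 at 28 dpn and 8057 at 188 dpn and rose in period I only (0.44 ± 0.09). LMAN2L, a related lectin, was dim, with medians of 197 in fetuses, 225 in newborns, 91.6 at 28 dpn and 64 at 188 dpn, and changed by 0.36 ± 0.13 in period I and -1.25 ± 0.17 in period II, where only the newborns let it through the filter. SEC22C, below the filter, had medians of 110.0 in fetuses, 121 in newborns, 105 at 28 dpn and 94.6 at 188 dpn.

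Of 10 COPI and ARF genes tested 4 rose and 2 fell in period I, 4 rose and 6 fell in period II, and 1 rose and 6 fell in period III. ARF2, described below with the ARF genes, was outside this role group and is not in these counts. COPG2, a gamma subunit, had 1190.0, 1449 and 1837 in fetuses, 359, 575 and 737 in newborns, 819, 1053 and 1267 at 28 dpn and 648, 964 and 1547 at 188 dpn. Every newborn was below every fetus and below every pig of 28 dpn, with changes of -1.37 ± 0.09 (adjusted p = 1.19e-14) and 0.89 ± 0.09 (adjusted p = 4.59e-10). COPZ2, a zeta subunit, had 2316, 2784 and 3697 in fetuses, 808, 903 and 1446 in newborns, 1916, 2451 and 3309 at 28 dpn and 1662, 1971 and 2960.1 at 188 dpn, again with no overlap on either side, and changes of -1.45 ± 0.10 (adjusted p = 4.08e-14) and 1.26 ± 0.11 (adjusted p = 1.09e-11). These were the largest falls of period I among members. Their alternatives in the coat were higher in newborns. COPG1 had medians of 1783 in fetuses, 2738 in newborns, 2213 at 28 dpn and 2008 at 188 dpn and changed by 0.62 ± 0.07 (adjusted p = 1.10e-08) and -0.29 ± 0.08 (adjusted p = 0.0023). COPZ1 had 3338 in fetuses, 3879 in newborns, 2654 at 28 dpn and 1867 at 188 dpn and changed by 0.22 ± 0.09, -0.62 ± 0.10 and -0.46 ± 0.08. The fall of COPG1 in period II was lost with median centring.

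COPB1 and COPA fell in period II. COPB1, the beta subunit, had 2526, 3008 and 4008 in fetuses, 2133, 3632 and 5819 in newborns, 829.9, 1349 and 2114 at 28 dpn and 531, 1278 and 2181 at 188 dpn. It was not called in period I (0.20 ± 0.10) and changed by -1.48 ± 0.13 (adjusted p = 5.05e-11) in period II without overlap. COPA, the alpha subunit, had medians of 2954 in fetuses, 2754 in newborns, 1822 at 28 dpn and 1517 at 188 dpn and changed by -0.67 ± 0.09 (adjusted p = 2.86e-07) in period II, also without overlap, and by -0.32 ± 0.10 in period III. COPB2 had the lowest mean of all members and lay at the Tag control background at 1, 28 and 188 dpn, with medians of 86.8 in fetuses, 61.8 in newborns, 17.9 at 28 dpn and 12.4 at 188 dpn, so no change is given.

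ARF GTPases recruit coatomer and other coats. ARF1 had medians of 7804 in fetuses, 9985 in newborns, 8100.2 at 28 dpn and 6869 at 188 dpn, with 0.37 ± 0.06, -0.30 ± 0.06 and -0.28 ± 0.06 in the 3 periods. ARF2, of the same class, had 548 in fetuses, 714 in newborns, 439.5 at 28 dpn and 239.7 at 188 dpn and changed by 0.42 ± 0.11, -0.75 ± 0.13 and -0.84 ± 0.12 (adjusted p = 1.59e-06). ARF4 had 10448 in fetuses, 11235 in newborns, 7785 at 28 dpn and 6253 at 188 dpn and fell in periods II (-0.54 ± 0.08) and III (-0.39 ± 0.11). ARF5 had 695 in fetuses, 679 in newborns, 909 at 28 dpn and 1106 at 188 dpn and rose in the same periods (0.40 ± 0.12 and 0.35 ± 0.08). ARF6, which acts at the plasma membrane and endosomes, had 2107 in fetuses, 2812 in newborns, 3599 at 28 dpn and 2329.9 at 188 dpn, rose by 0.36 ± 0.07 and 0.33 ± 0.08 and fell by 0.52 in period III (adjusted p = 5.92e-07). The period II calls were lost for ARF1 with median centring and with the actin covariate, and for ARF2 and ARF5 with the actin covariate only.

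TRAPP complexes tether vesicles and activate Rab GTPases. This was the only role group in which more members rose than fell in every period: 4 rose and 1 fell of 9 tested in period I, 5 rose and 1 fell of 10 in period II (4 rises without TRAPPC12, which only the pigs of 28 dpn let through the filter), and 4 rose and none fell of 10 in period III. TRAPPC5 had 860.2, 1071 and 1541 in fetuses, 638, 1008 and 1402 in newborns, 2350.2, 2536 and 3957 at 28 dpn and 2111, 3321 and 5400.3 at 188 dpn. The fetuses and newborns overlapped, the pigs of 28 dpn were all above the newborns, and the change of period II was 1.45 ± 0.10 (adjusted p = 8.44e-14), a 2.73-fold rise. TRAPPC3 had 1382, 1540.3 and 2008 in fetuses, 1511, 2181 and 2755 in newborns, 3181, 3458 and 4200.4 at 28 dpn and 3569, 4543 and 5315 at 188 dpn, with 0.44 ± 0.08, 0.72 ± 0.08 (adjusted p = 2.50e-09) and 0.36 ± 0.06 in the 3 periods. TRAPPC2L had medians of 1536 in fetuses, 2424 in newborns, 3771 at 28 dpn and 4362 at 188 dpn and changes of 0.66 ± 0.08, 0.62 ± 0.08 and 0.20 ± 0.08. TRAPPC4 had 1583 in fetuses, 1621 in newborns, 2078 at 28 dpn and 3169 at 188 dpn and rose in periods II (0.37 ± 0.09) and III (0.53 ± 0.08, adjusted p = 5.58e-06). With the actin covariate the rises of TRAPPC2L, TRAPPC4 and TRAPPC12 in period II were lost, as were those of TRAPPC2L and TRAPPC5 in period III.

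Among the remaining TRAPP genes 1 set the newborns and the fetuses apart. TRAPPC11 had 472, 596 and 715 in fetuses, 247, 383 and 470.1 in newborns, 206, 329 and 439 at 28 dpn and 205, 314 and 352 at 188 dpn. Its newborns were all below the fetuses (-0.65 ± 0.08, adjusted p = 6.45e-08), and later stages did not differ by the test. TRAPPC13 had medians of 472 in fetuses, 534 in newborns, 275 at 28 dpn and 251 at 188 dpn and fell in period II (-0.92 ± 0.12, adjusted p = 1.11e-07). TRAPPC1 had 507 in fetuses, 894 in newborns, 675 at 28 dpn and 787 at 188 dpn and rose in period I (0.65 ± 0.10). TRAPPC9 had 270.0 in fetuses, 314 in newborns, 259 at 28 dpn and 294 at 188 dpn and also rose there (0.30 ± 0.13). TRAPPC2 had 266 in fetuses, 297 in newborns, 261 at 28 dpn and 218 at 188 dpn and was called in no period. TRAPPC12 had 110.1 in fetuses, 67.4 in newborns, 165 at 28 dpn and 189 at 188 dpn, and since its mean at 1 dpn lay at the Tag background, its rise in period II (adjusted p = 1.97e-04) is given without a size. It is nonetheless counted above among the period II rises of at least 2-fold.

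**Figure D3:**
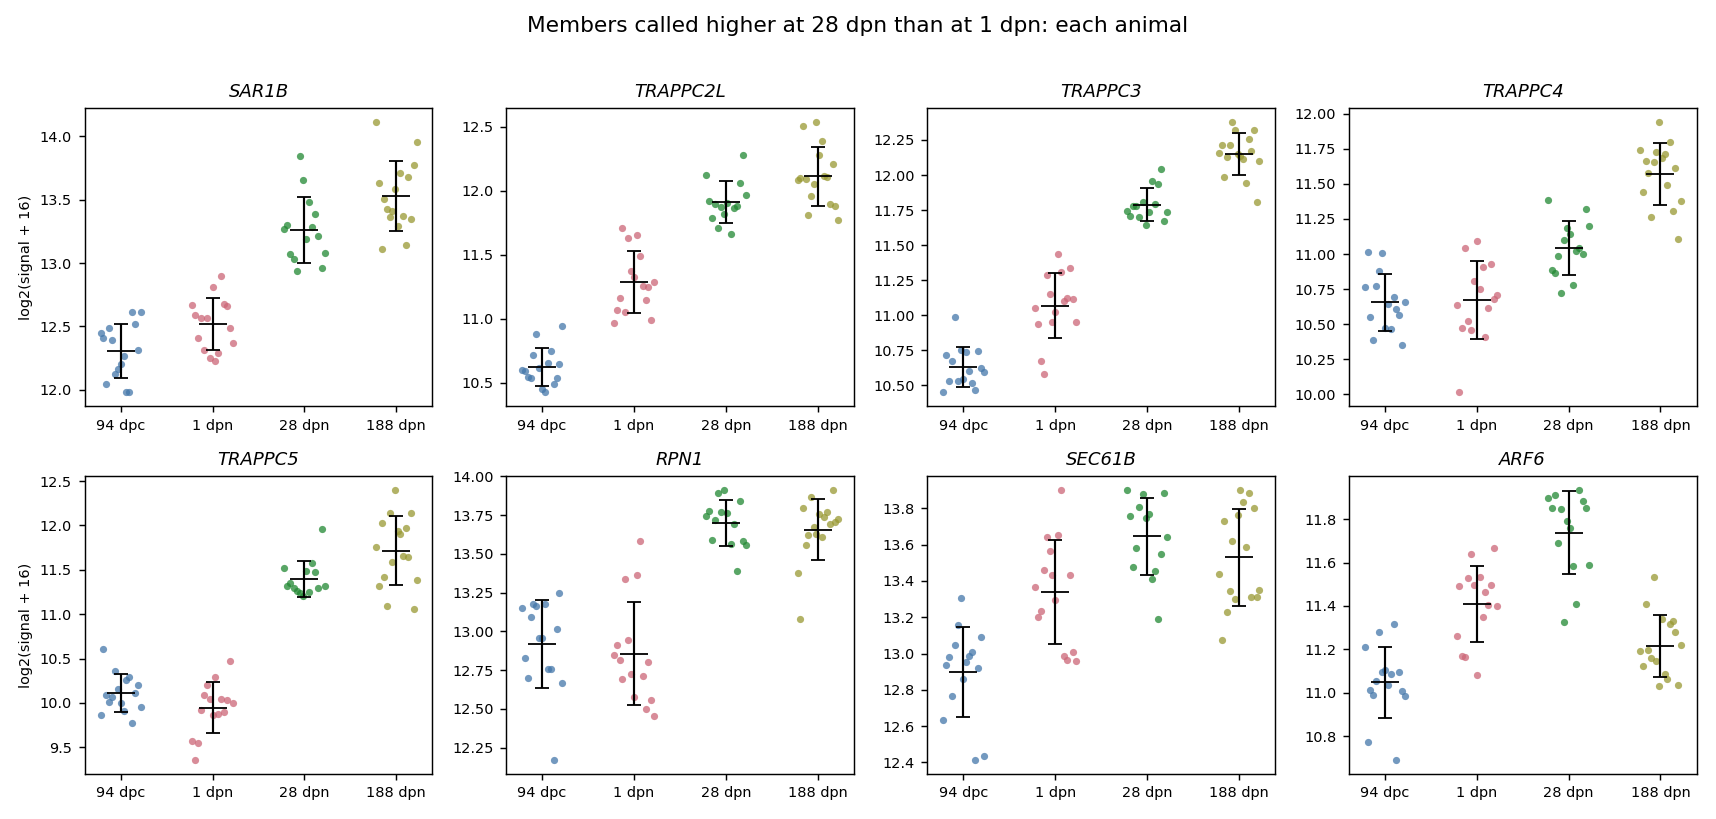
Log2(signal + 16) of 8 members that rose in period II, in each of the 60 animals (points) at the 4 stages in order of age, with the stage mean (horizontal bar) and SD (error bar). For SAR1B, TRAPPC3 and TRAPPC5 every pig of 28 dpn lies above every newborn, while ARF6 is highest at 28 dpn and lower again at 188 dpn.

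The plot of the genes that rose in period II shows no newborn peak in their stage means, and ARF6 and SEC61B rose in period I as well. SAR1B, TRAPPC2L and TRAPPC3 rose in each period, whereas RPN1 and SEC61B reached their level by 28 dpn and did not change further by the test.

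SEC14L1 and SEC14L2 met the rule through their symbols, but encode lipid-binding proteins that are no part of the machinery above. SEC14L2, known also as tocopherol-associated protein, had 549, 854 and 1590.1 in fetuses, 3482, 4389 and 5754 in newborns, 3771, 4753 and 6217 at 28 dpn and 3418, 4369.6 and 6287 at 188 dpn. Every newborn was above every fetus, the change of 2.27 ± 0.11 (adjusted p = 2.24e-17) was the largest rise of any member, and the later stages kept this level (0.07 ± 0.09 and -0.09 ± 0.09). SEC14L1 had medians of 1032 in fetuses, 1453 in newborns, 1085 at 28 dpn and 900.5 at 188 dpn, rose by 0.37 ± 0.10 in period I and fell by 0.41 in period III (adjusted p = 0.0174).

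Several members are alternative subunits of the same complex, and for 8 such pairs the difference between them was followed within each array. Such a difference is nearly independent of the scaling of the array, but its sign at a stage depends on the probes, so only its change between stages is read. The pairs were taken with the values known, and their changes are a description with no test. The difference COPG1 minus COPG2 ran over -0.15 to 0.79 in fetuses, 1.57 to 2.88 in newborns, 0.77 to 1.65 at 28 dpn and 0.46 to 1.52 at 188 dpn. It had a change of 1.99 ± 0.11 in period I, with every newborn above every fetus, and of -1.19 ± 0.12 in period II. COPZ1 minus COPZ2 ran over 0.06 to 0.56 in fetuses, 1.40 to 2.49 in newborns, -0.42 to 0.41 at 28 dpn and -0.86 to 0.28 at 188 dpn. It had a change of 1.67 ± 0.10 in period I and -1.88 ± 0.11 in period II, with no overlap in either, and its range at 28 dpn again overlapped that of the fetuses.

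The COPII and enzyme pairs shifted as well. SEC23A minus SEC23B ran over 0.46 to 1.49 in fetuses, -1.84 to 0.07 in newborns, -0.90 to 0.55 at 28 dpn and 0.02 to 1.19 at 188 dpn, with changes of -1.57 ± 0.15, 0.49 ± 0.17 and 0.82 ± 0.14 in periods I, II and III. Every newborn was below every fetus, and by 188 dpn the range overlapped that of the fetuses. SAR1A minus SAR1B had a change of -1.96 ± 0.13 in period II without overlap and of -0.52 ± 0.12 in period III. Its period I value of 0.75 ± 0.11 became -0.09 with the mean of all probe-sets of each gene. STT3A minus STT3B ran over -1.17 to -0.59 in fetuses, -0.49 to 0.93 in newborns, -1.03 to 0.84 at 28 dpn and -1.12 to -0.16 at 188 dpn and its change was 1.28 ± 0.12 in period I, -0.26 ± 0.18 in period II and -0.81 ± 0.16 in period III. SEC11A minus SEC11C had changes of -0.75 ± 0.08, 0.44 ± 0.10 and -0.83 ± 0.15. SEC24C minus SEC24D had changes of -0.42 ± 0.15, 1.01 ± 0.17 and 0.69 ± 0.17. SEC31A minus SEC31B gave 0.05 ± 0.30 in period I and -0.38 ± 0.26 in period II, in both cases less than 2 SE from 0, but -2.09 in period II with the mean of all probe-sets. In period III it gave -0.38 ± 0.13.

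**Figure D4:**
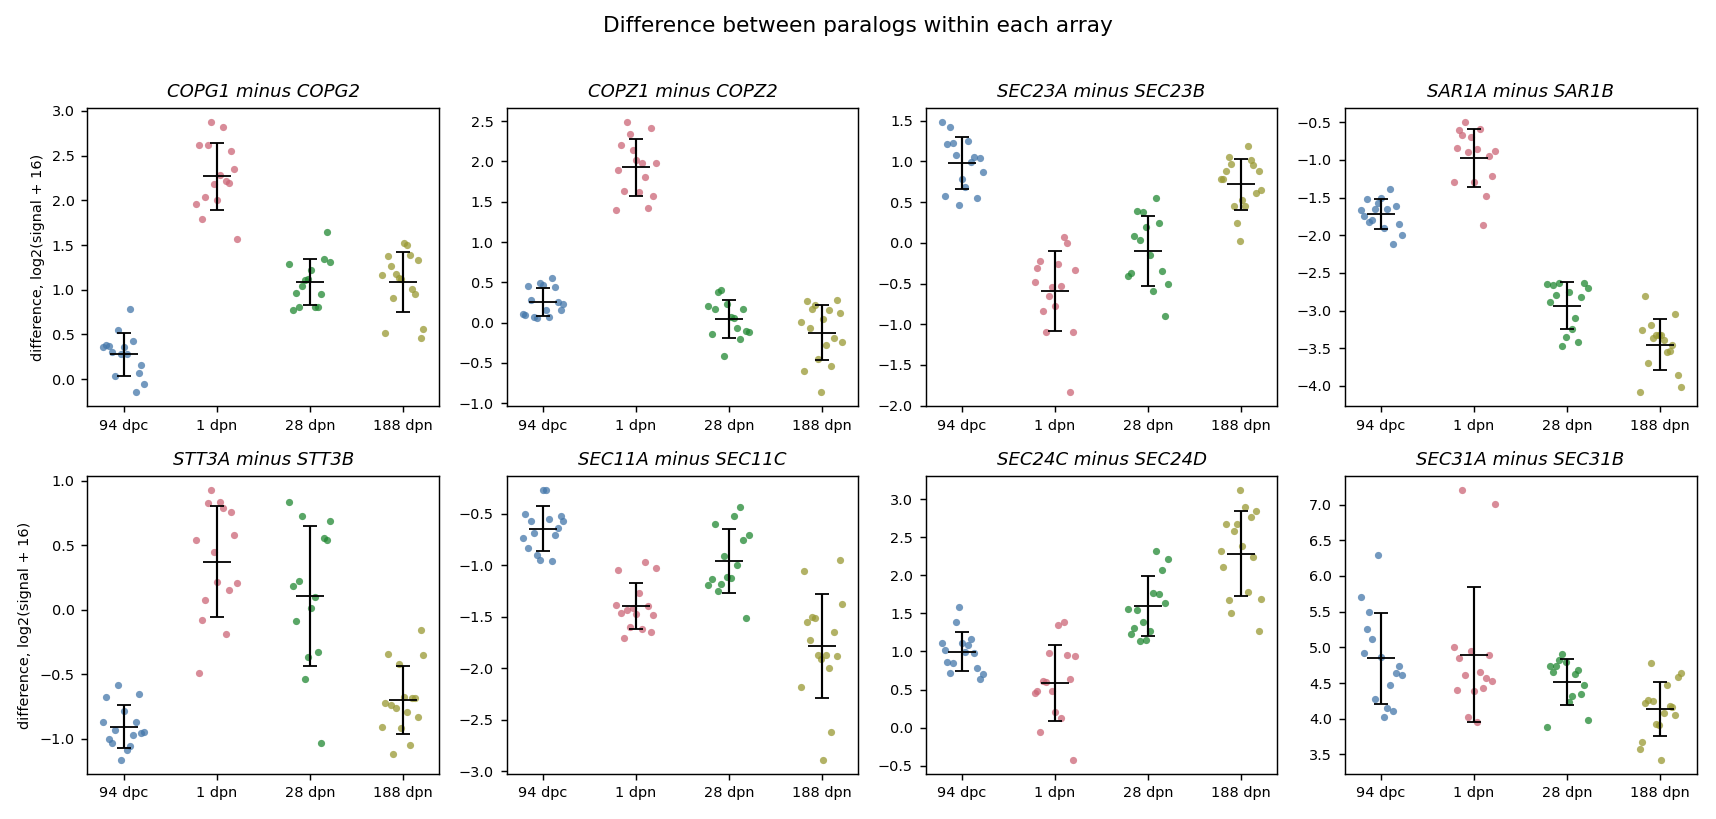
Difference between the log2(signal + 16) of paralogs within each of the 60 arrays (points, 1 panel per pair) at the 4 stages in order of age, with the stage mean (horizontal bar) and SD (error bar). COPG1 minus COPG2 and COPZ1 minus COPZ2 are higher in every newborn than in every fetus, and SEC23A minus SEC23B is lower in every newborn than in every fetus.

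The probe-sets of a gene did not always give the same answer. In 4 of the 23 genes with several probe-sets, some were called higher and others lower in the same period. For SEC31A the probe-set that stands for the gene gave 0.04 ± 0.07 in period II, whereas the others gave -2.62 ± 0.10 (adjusted p = 2.36e-20) and -2.42 ± 0.25 (adjusted p = 9.31e-10). The first of these had medians of 1257 in fetuses, 1654 in newborns, 242 at 28 dpn and 194 at 188 dpn. In period I they gave 0.38 ± 0.09, which was called, and 0.29 ± 0.19, beside -0.43 ± 0.06 for the representative. For KDELR2 the representative gave 0.48 ± 0.10 in period II and the others -0.29 ± 0.11 and -2.08 ± 0.13 (adjusted p = 1.29e-14), all called. For SAR1A the 3 probe-sets gave 0.96 ± 0.08, -0.33 ± 0.10 and -0.50 ± 0.11 in period I, and all 3 fell in periods II and III. For TMED7, 2 of 4 probe-sets rose in period I and 1 fell (-0.35 ± 0.10).

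In other genes the probe-sets differed in size, or only some were called. In period I SEC63 gave -0.12 ± 0.13 for the representative, not called, and 0.56 ± 0.12 and 0.48 ± 0.12 for the others, which rose. SRP68 gave -0.06 ± 0.08, not called, and 0.36 ± 0.09, a rise, and COPB1 0.20 ± 0.10, not called, and -0.34 ± 0.11, a fall. The representatives of SRP19 and TMED10 fell by -0.34 and -0.60 there, while their other probe-sets gave -0.14 and 0.13, not called. In period II the SRP19 probe-sets gave -1.61 and -0.83, both falls. SRPRA gave 0.69 ± 0.10 and 1.45 ± 0.10 in period I, while the 2 tested probe-sets of TMED5 were close, at 1.58 ± 0.14 and 1.62 ± 0.12. For SEC61A1 the representative changed by 0.32 ± 0.13 in period I and -0.44 ± 0.13 in period II. The other 2 gave 1.31 ± 0.16 and 1.18 ± 0.14 in period I, and -1.91 ± 0.16 and -1.67 ± 0.12 in period II. SRP68 gave -0.61 ± 0.09 for the representative and -2.16 ± 0.10 for the other in period II. Over the 23 genes, the representative had the highest change of its gene's probe-sets in 15 in period II, in 6 in period I and in 9 in period III. The 3'/5' ratio of actin was highest in the 2 later stages, and which part of each transcript a probe-set reads was not determined, so their part in these differences was not tested.

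**Figure D5:**
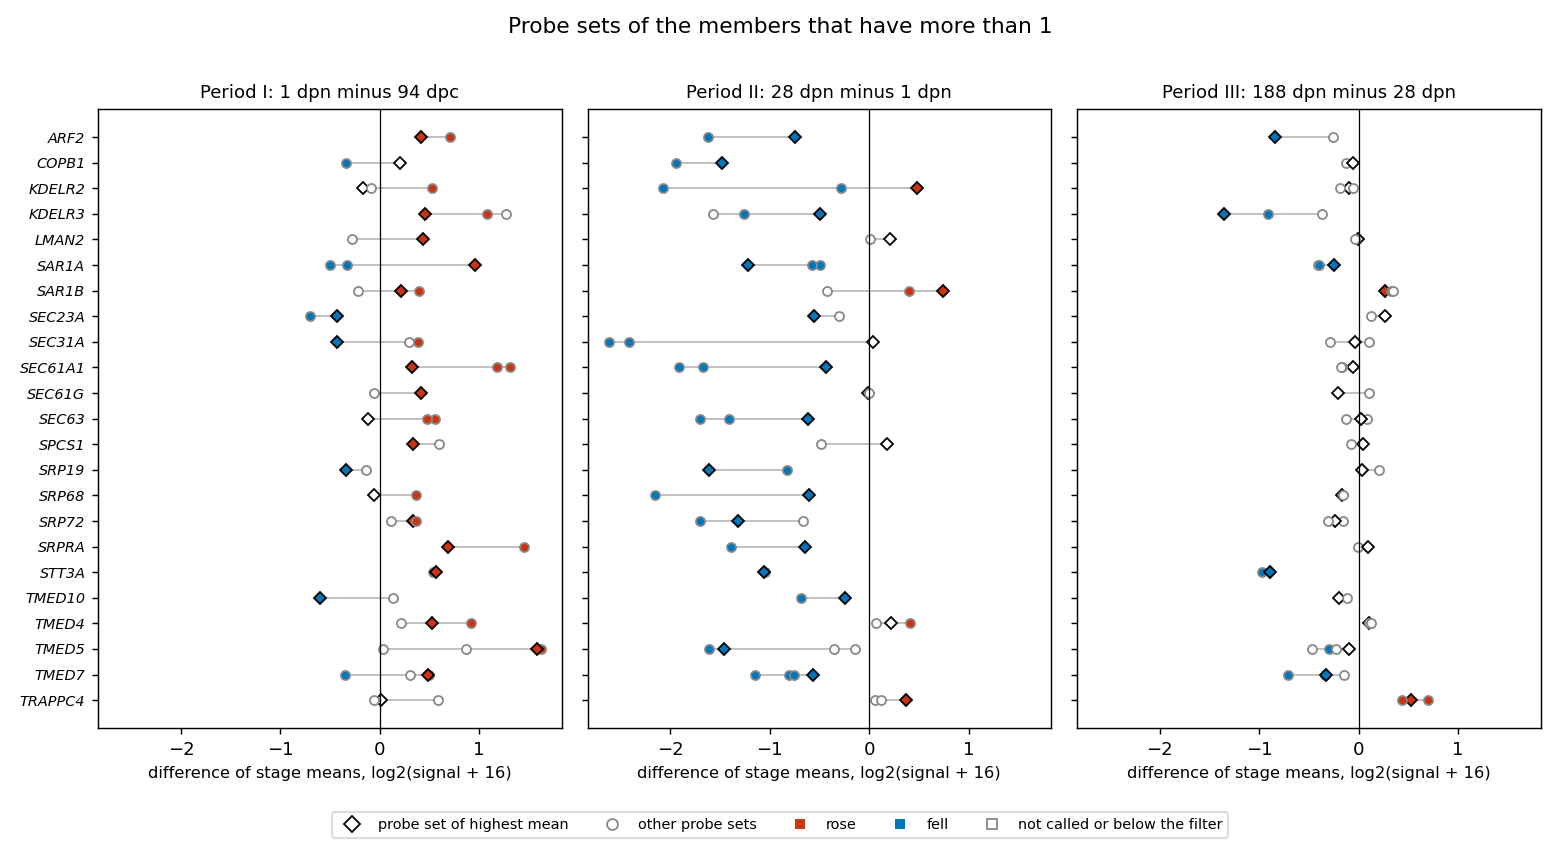
Difference of stage means on the log2(signal + 16) scale (horizontal axis) for every probe-set of the 23 members that have more than 1, in rows by gene and in 1 panel per period. Diamonds are the probe-sets that stand for the gene, circles the others, and red and blue mark those that rose and fell; in period II the diamond is the highest of its row in 15 genes.

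The newborns also varied most among themselves. The median SD of the members within a stage was 0.19 for fetuses, 0.30 for newborns, 0.24 at 28 dpn and 0.26 at 188 dpn, and that of all genes was 0.25, 0.34, 0.28 and 0.31. For each animal the median deviation of the 68 members from their stage means was taken. Among the newborns it ran from -0.27 to 0.25, beside -0.11 to 0.07 for all genes, and among the fetuses from -0.07 to 0.08, beside -0.01 to 0.04. At 28 dpn it ran from -0.12 to 0.11, beside -0.04 to 0.04, and at 188 dpn from -0.15 to 0.14, beside -0.01 to 0.05. The range of the members was the wider at every stage, but a median over 68 genes varies more than one over 5491 genes. The arrays were also scaled to a common trimmed mean, so the wider range is not read as a trait of the members. By the median SD within a stage, the members varied less than all genes at every stage. The newborn with the highest value had an actin ratio of 2.23, the highest of its stage, and that with the lowest value a ratio of 2.08.

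Other genes of the pathway, from lists chosen with earlier results known, were read in the same way. Of 33 further ER to Golgi transport genes, 17 rose and 9 fell in period I (beside 29.8% and 35.6% of all genes), 2 rose and 23 fell in period II (beside 32.2% and 35.7%), and 5 rose and 6 fell of 32 in period III (beside 17.5% and 28.3%). Their median changes were 0.24, -0.30 and -0.02, and 15 of the 33 had their highest mean in newborns (beside 22.2%). In period I COG8, a Golgi tether subunit, rose by 1.25 ± 0.25. The SNARE proteins GOSR2 and YKT6, which drive vesicle fusion, rose by 1.14 ± 0.10 and 1.04 ± 0.09, and PREB, the exchange factor that activates SAR1, by 1.11 ± 0.13 (adjusted p = 7.79e-09). In period II RAB1A, a GTPase of ER to Golgi transport, changed by -1.59 ± 0.12 (adjusted p = 1.42e-12), GOLGA5 by -1.49 ± 0.12 and ERGIC2 by -1.21 ± 0.16, while ERGIC1 rose by 1.81 ± 0.08 (adjusted p = 9.62e-19). In period III CNIH1, a cargo receptor, changed by -0.81 ± 0.14, MCFD2, which carries clotting factors in human, by -0.63 ± 0.13, BNIP1 by -0.53 ± 0.09 and BCAP31 by 0.55 ± 0.08.

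The other translocation and glycosylation genes moved both ways. Of 19 tested in period I 8 rose and 5 fell (beside 29.8% and 35.6% of all genes), of 20 in period II 5 rose and 8 fell (beside 32.2% and 35.7%), and of 20 in period III 1 rose and 5 fell (beside 17.5% and 28.3%), with medians of 0.04, 0.00 and -0.11. OSTC, an oligosaccharyltransferase subunit of the STT3A complex, changed by 0.60 ± 0.08, -1.12 ± 0.12 (adjusted p = 1.90e-09) and -0.77 ± 0.14 in periods I, II and III. TRAM1, a protein beside the channel, was not called in period I and changed by -0.77 ± 0.09 (adjusted p = 1.83e-08) in period II. MPDU1, which helps to use the sugar donor, rose by 1.31 ± 0.10 (adjusted p = 2.89e-13) in period I. ALG8, which adds a glucose to the sugar chain, changed by -0.90 ± 0.12 in period I, and WRB, a receptor for tail-anchored proteins, by -0.98 ± 0.10.

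Of 7 measured regulators of the unfolded protein response, the programme that raises ER capacity when unfolded protein builds up, none rose and 5 fell in period I, beside 29.8% and 35.6% of all genes. Those that fell were DDIT3 (-0.85 ± 0.22), PPP1R15B (-0.79 ± 0.21), ATF6B (-0.66 ± 0.09), CREB3L2 (-0.48 ± 0.11) and ATF4 (-0.28 ± 0.12). XBP1 was not called in any period and gave -0.16 ± 0.10, 0.04 ± 0.10 and 0.09 ± 0.07. In period II ATF6B and DDIT3 rose, by 0.80 ± 0.08 and 0.80 ± 0.24, and none fell, and in period III DDIT3 fell (-0.35 ± 0.13).

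Of 43 genes for secreted plasma proteins, the cargo of the route, 19 rose and 10 fell in period I (beside 29.8% and 35.6% of all genes), 10 rose and 22 fell in period II (beside 32.2% and 35.7%), and 28 rose and 1 fell of 42 in period III (beside 17.5% and 28.3%). Their medians were 0.10, -0.25 and 0.27, beside -0.06, -0.03 and -0.06 over all genes. Their highest mean was in fetuses for 16 (beside 37.7% of all genes), in newborns for 14 (22.2%), at 28 dpn for 1 (16.5%) and at 188 dpn for 12 (23.6%). C9, a complement protein, rose by 1.44 ± 0.18 (adjusted p = 2.44e-08) in period I and HPX, which binds haem, by 1.39 ± 0.09 (adjusted p = 5.19e-15). Larger rises in the list are not named here. Among the 10 that fell in that period, APOM changed by -1.18 ± 0.09 and ITIH2 by -1.15 ± 0.09. ALB, serum albumin, changed by 0.35 ± 0.10, -0.79 ± 0.09 (adjusted p = 2.22e-09) and 0.31 ± 0.08 in periods I, II and III. In period III the members of the secretory machinery and these cargo genes had medians of -0.09 and 0.27, a difference that was not tested. Some cargo probe-sets were far brighter than the members. ALB, APOA1 and HP had newborn means of 16.26, 16.07 and 16.20 on the log2 scale, beside 13.92 over all arrays for SSR2, the brightest member. Others, such as F5 (11.94 in newborns), lay within the range of the members. Whether the brightest signals still follow the amount of RNA in proportion was not tested.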

How the data were processed

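Deposited values were 1 intensity per probe-set and array from 60 arrays of 60 animals. The submitters' processing notes name GCOS 1.1.1. The authors deposited linear signals scaled so that the mean after 2% trimming was about 500, not the GCRMA log2 values of the study's methods. Array number limits the precision. Each intensity plus 16 was taken to log2. Stages were compared in pairs with limma 3.58.1 (R 4.3.3), 2-sided, over the non-control probe-sets that passed the filter. Of 23999 these were 12771 in period I, 12976 in period II and 12568 in period III. The 4 stages were compared with its F test over 13844. The study's covariates (sex, mother, weight) are not in the labels. Gene names came from the array annotation, which gives 10069 probe-sets 1 gene, 198 several and 13732 none. All 71 member IDs and symbols were found in RefSeq Sscrofa11.1, used for names only. The array control ratios were compared with 100000 permutations (scipy 1.17.1, Python 3.11.15), adjusted over both controls and the 3 periods. The fitting script was tested on simulated data.

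Genes were named by rule: the 8 largest called changes per period and direction, the 2 largest per role and period, members never called, members with disagreeing probe-sets and those of extreme mean. The remaining members are given more briefly so that each is accounted for. The members and lists were chosen with earlier results of these data known. The paralog pairs and the count of highest stage means were added after the data were seen. Animals of the other maternal diet were not analysed here, and 1 gene of the family names is not reported. No sequences or coordinates are given.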

Additional observations from a re-analysis of the deposited data

How the results depend on the processing

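The 10 alternatives were pseudocounts of 1 and 64, no filter, a filter in every stage compared, quantile normalization, median centring, removal, from every stage, of the array least correlated with the rest (4 arrays), the actin 3'/5' ratio as a covariate, a fit over all stages, and the mean of a gene's probe-sets. Of the calls reported, 26 of 37 rises and 5 of 10 falls in period I, 6 of 13 rises and 16 of 39 falls in period II, and 3 of 9 rises and 15 of 20 falls in period III passed under all of them. Counts moved by over 1.5 times under 3. With median centring 6 members fell in period I, 23 rose and 24 fell in period II. The split of all genes moved with it to 50.8% higher and 19.6% lower in period II, and to 39.6% and 24.7% in period I. With the actin covariate 6 rose and 24 fell in period II and 4 rose in period III. With no filter 5 rose in period III. The number with their highest mean at 1 dpn lay between 26 and 36 under the 7 alternatives run for it.

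Median centring adds the same constant to every gene of a comparison, so in period II the small falls of DAD1 (0.0054), DDOST (0.0113), SPCS3 (0.0209), SSR2 (0.0639) and TMED10 (0.0748) took a positive sign by construction. So did SEC11A (0.2682) and SEC61G (0.2972), which had no called direction. With the actin covariate KDELR2 (-0.0556) and SEC61B (-0.2709) reversed in period II. With the mean of a gene's probe-sets KDELR2 (-0.6289) and SEC31A (-1.6674) reversed in period II, and SEC31A (0.0816), SEC63 (0.3031) and SAR1A minus SAR1B (-0.0879) in period I. The actin ratio does not overlap between 28 and 1 dpn, so stage and ratio are largely the same split in the covariate fit of period II. No paired analysis was possible because the labels number the animals through the series, and no number is shared between stages. Signals near background limit COPB2, SPCS2, SEC22C, LMAN2L, SEC31B and TRAPPC12.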
